A study of Mus musculus with 60 samples.

Results

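The RNA response of R1 mouse embryonic stem cells to the antihistamine loratadine was compared with that of cells given the solvent alone. The comparison rests on 6 of the 60 arrays of the series, chosen by their treatment labels: 3 arrays of cells given 0.043 mM loratadine in 0.1% DMSO and 3 arrays of cells given 0.1% DMSO. The line R1, long established from mouse embryos, was kept on feeder cells, freed of them before the experiment and exposed for 6 h while undifferentiated. The loratadine dose was the IC10, the concentration that lowered viability by 10% in a 24 h assay, and the labels class the drug as a non-teratogen. The whole series holds 20 groups of 3 arrays, namely DMSO, 10 teratogens and 9 non-teratogens. For comparison the text uses clozapine (0.028 mM, its IC10) and glybenclamide (0.37 mM, its IC10), both labelled non-teratogens, and valproic acid (1 mM), labelled a teratogen. All of these were given for 6 h in 0.1% DMSO. The features are the 21789 probe sets with a single gene symbol, which stand for 19938 symbols.

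Loratadine blocks the histamine H1 receptor and is a fat-soluble tricyclic compound. Cells meet a shortage of amino acids or misfolded protein in the endoplasmic reticulum by phosphorylating the initiation factor eIF2, which lets the transcription factor ATF4 be translated; ATF4 then switches on genes of amino acid supply and the factor CHOP (Ddit3). A fall of sterol in the endoplasmic reticulum frees the factor SREBP2, which raises the genes of cholesterol synthesis, and stress on lysosomes sends the factors TFEB and TFE3 to the genes of lysosomal enzymes. In embryonic stem cells, Nodal, BMP and FGF signals and the core factors Oct4 (Pou5f1), Sox2 and Nanog govern the undifferentiated state.

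Values are log2 RMA signals, and a difference is the loratadine mean minus the DMSO mean, ± the SE of the fitted model, with 3 arrays per group. A probe set was called when its limma p-value, adjusted by Benjamini and Hochberg over all 21789, was under 0.05. The labels do not say that the arrays came from separate cultures, so the p-values measure the spread between these arrays, which may be technical. The array medians ran from 7.61 to 7.62 with loratadine and from 7.63 to 7.67 with DMSO. The root mean square difference between 2 arrays was 0.106 to 0.132 within loratadine, 0.128 to 0.182 within DMSO and 0.191 to 0.261 across the groups. The 9 stem cell markers had DMSO means of 10.25 (Klf4) to 13.10 (Utf1), with a median of 12.41. Feeder fibroblast markers had DMSO means of 4.46 (Lum) to 12.69 (Acta2), with a median of 8.56. The DMSO medians were 8.64 for trophoblast markers, 8.14 for mesoderm and neural markers and 7.93 for primitive endoderm markers. The feeder median alone therefore does not show whether feeder cells were left. The mean of the 20 feeder markers was 8.82 to 8.90 over the loratadine arrays and 8.84 to 8.90 over the DMSO arrays. In RNA from a whole culture, fewer cells of a type and less RNA per cell cannot be told apart.

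After 6 h, loratadine had changed the level of 4184 probe sets (19.2%), 2385 upward (10.9%) and 1799 downward (8.26%). Rises were the larger changes. Of the called probe sets, 18 rose at least 2-fold and 0 fell as much. At an unadjusted p under 0.05 the count was 7182. The median difference over all probe sets was -0.04. All 3 loratadine arrays lay above all 3 DMSO arrays for 4168 probe sets (19.1%) and below them for 4578 (21%). The count rested partly on single arrays, since 2723 probe sets were called without DMSO replicate 2. That array had an interquartile range of 3.11, against 3.20 and 3.23 in the other DMSO arrays and 3.24 to 3.27 with loratadine. With that range as a covariate, 3730 probe sets were called, of which 3079 were among the 4184 and in the same direction. The loratadine mean was the highest of the 20 groups for 1180 of the 2385 probe sets that rose (49.5%) and the lowest for 898 of the 1799 that fell (49.9%).

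Ddit3 (probe set 10366881) rose most. It encodes CHOP, a transcription factor that ATF4 induces and that promotes cell death under lasting stress. Its signal was 9.57, 9.81 and 9.89 in the loratadine arrays and 8.14, 8.19 and 8.20 in the DMSO arrays, so the groups were far apart. The difference was 1.58 ± 0.09, or 2.99-fold (limma adjusted p = 1.39e-18). No other group of the series had a mean above 8.80, that of chlorthalidone. In GRCm38.p6 the spans of Ddit3 and Mars1 overlap by 71 bases on chromosome 10, and Mars1 itself rose by 0.19, a call that was lost without loratadine replicate 3 or DMSO replicate 3.

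Chac1 (10474972), a glutathione-degrading enzyme induced by ATF4, followed closely. Its signal was 10.56, 10.79 and 10.62 with loratadine and 8.99, 9.25 and 9.07 with DMSO. The lowest loratadine array was thus well above the highest DMSO array, and the difference was 1.55 ± 0.08, or 2.94-fold (limma adjusted p = 2.45e-19). Sulfasalazine (10.48) and chlorthalidone (10.44) had the next highest group means.

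The other 14 of the 16 largest rises covered several kinds of gene. None of the 16 had overlapping groups, by the rule that chose them. Wnk1, a kinase that controls salt cotransporters, rose by 1.46 ± 0.10 on probe set 10547469, with 9.67 to 9.70 in the loratadine arrays and 7.97 to 8.35 in the DMSO arrays. The brighter Wnk1 probe set, 10547436, differed by -0.01 ± 0.06 (adjusted p = 0.877), so the 2 probe sets of this gene disagreed. Rnf157, a ubiquitin ligase, rose by 1.27 ± 0.07, and the small heat shock protein Hspb6 by 1.23 ± 0.07. Ahnak2, a very large scaffold protein, rose by 1.20 ± 0.09 on 1 probe set and by 0.75 ± 0.07 on the other. Insig1 (1.19 ± 0.08) and Msmo1 (1.18 ± 0.07) belong to sterol control and synthesis, and Slc6a9 (1.17 ± 0.08) and Slc1a4 (1.10 ± 0.07) carry glycine and small neutral amino acids. Sat2, related to the polyamine acetyltransferases, rose by 1.20 ± 0.08. Pstpip2, a membrane-bending adaptor, rose by 1.11 ± 0.08, and Stat2, which relays type I interferon signals, by 1.07 ± 0.07. Lrrc31 (1.05 ± 0.07), the microRNA gene Mir302b (1.03 ± 0.15) and Sycp3, a part of the meiotic synaptonemal complex (1.02 ± 0.13), completed the set.

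**Figure D1:**
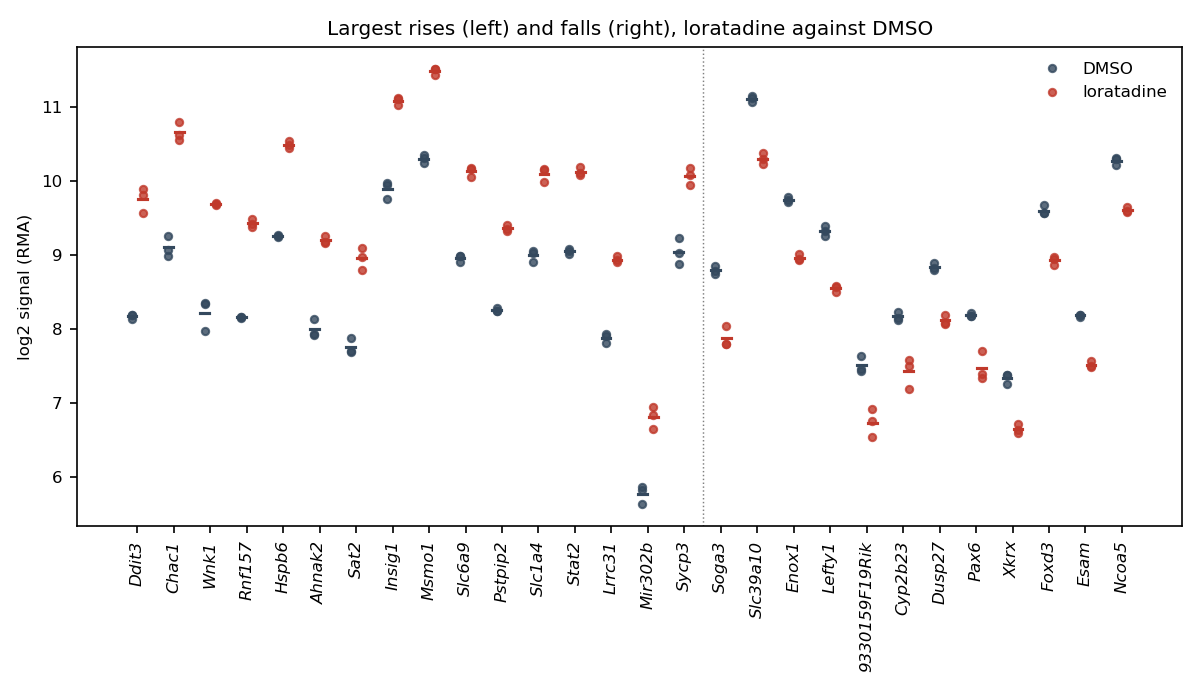
Log2 RMA signal (vertical axis) of the 16 largest rises and the 12 largest falls, with 1 point per array and a bar at each mean, for 3 DMSO and 3 loratadine arrays. Ddit3 and Chac1 show the widest gaps, 1.58 and 1.55, and no gene shown has overlapping groups because the rule required it.

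Falls were smaller, and the 12 largest lay between -0.91 and -0.66. Soga3 fell by 0.91 and 9330159F19Rik by 0.77; the spans of these neighbours overlap by 689 bases in GRCm38.p6, and whether their signals are separate was not tested. Slc39a10, a zinc importer, had 10.37, 10.22 and 10.30 with loratadine and 11.06, 11.14 and 11.11 with DMSO, a difference of -0.81 ± 0.06. Its groups did not overlap, as the rule that chose the 12 falls required. Lefty1, a secreted inhibitor of Nodal, measured 8.56, 8.50 and 8.59 against 9.26, 9.32 and 9.39, a difference of -0.77 ± 0.09 (adjusted p = 3.02e-09). The neural and eye factor Pax6 fell by 0.72 and Foxd3, a factor of the early epiblast and neural crest, by 0.67. Enox1 (-0.78), the cytochrome Cyp2b23 (-0.74), the phosphatase-like Dusp27 (-0.72), Xkrx (-0.69), the endothelial adhesion protein Esam (-0.67) and the nuclear receptor coregulator Ncoa5 (-0.66) made up the remainder.

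Among the listed regulators of the ATF4 and CHOP response more rose than fell. The list was drawn up with earlier results of these data known. Of 21 measured members, with the brightest probe set taken for each gene, 12 rose and 1 fell, with a median difference of 0.25. Over all 19938 genes taken this way, 11.4% rose, 8.42% fell and the median was -0.04. Trib3, a pseudokinase induced by CHOP that damps ATF4, measured 9.35, 9.35 and 9.51 with loratadine and 8.43, 8.53 and 8.45 with DMSO. The arrays did not overlap, and the difference was 0.93 ± 0.07. Ddit4, an inhibitor of the growth kinase mTORC1, rose by 0.79 ± 0.09. The mRNA of Atf4 itself stood at 9.11, 9.12 and 9.11 against 8.45, 8.50 and 8.49, a rise of 0.64 ± 0.06. Stc2, Nupr1, Atf3 and Vldlr also rose, by 0.76, 0.69, 0.55 and 0.50. Ppp1r15a, which brings a phosphatase back to eIF2, rose by 0.43. Among the kinases that phosphorylate eIF2, the endoplasmic reticulum sensor Eif2ak3 rose by 0.25 (not called without DMSO replicate 2) and the haem sensor Eif2ak1 fell by 0.19, a call that was lost when any of the 6 arrays was left out. The amino acid sensor Eif2ak4 (0.11) and the double-stranded RNA sensor Eif2ak2 (0.22) were not called, though Eif2ak2 was without loratadine replicate 2. Cebpb (-0.05) and Fgf21 (-0.07) were not called either.

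The promoter of Chac1 is shown because this gene combined the second largest rise with the letters of an amino acid response element. The 250 bases before its start are given from RefSeq, GRCm38.p6, chr2:119350992-119351241, plus strand, 5' to 3'. Capitals mark TGATGCAA, here read as TTGCATCA on the gene's strand, and the NF-Y box CCAAT or its reverse complement ATTGG.
Chac1: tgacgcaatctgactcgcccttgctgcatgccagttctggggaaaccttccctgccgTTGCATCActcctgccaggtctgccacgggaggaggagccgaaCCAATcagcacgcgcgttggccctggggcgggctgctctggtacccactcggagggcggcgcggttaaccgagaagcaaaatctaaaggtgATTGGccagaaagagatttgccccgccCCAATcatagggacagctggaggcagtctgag

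The 8 letters TGATGCAA, searched on both strands from 250 bases before to 50 after each start, stood in 0.82% of the promoters of 15614 tested genes. They stood in 5 of 19 genes of the ATF4 and CHOP list that have a promoter window (26.3%), among them Fgf21, which was not called. They also stood in 2 of 10 amino acid transporters, in 1 of 12 genes of serine, asparagine and proline synthesis and in 3 of 11 aminoacyl-tRNA synthetases. These shares depend on which genes were listed and not on the arrays. Promoters of Ddit3 and Trib3 held no such match in this window. Stretches of 28 bases around the match, chosen after the matches were seen and printed on the strand that reads TGATGCAA (capitals), are given for 5 genes that rose. Their positions in GRCm38.p6 are chr1:191183426-191183453 (Atf3), chr7:126625563-126625590 (Nupr1), chr19:27216810-27216837 (Vldlr), chr3:50443662-50443689 (Slc7a11) and chr19:43524690-43524717 (Got1).
Atf3: gcggacttggTGATGCAAgtgcgagaag
Nupr1: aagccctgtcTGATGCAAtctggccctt
Vldlr: ctaggagcgcTGATGCAActattgctgc
Slc7a11: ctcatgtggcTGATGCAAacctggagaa
Got1: gaggcttgtaTGATGCAAccaatgcaat

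Genes that bring in or make amino acids moved with these regulators. Of 15 measured amino acid transporters, 11 rose and 1 fell, with a median of 0.30. Slc6a9 measured 10.05, 10.18 and 10.16 with loratadine and 8.98, 8.98 and 8.91 with DMSO. Slc1a4 measured 9.98, 10.16 and 10.14 against 8.90, 9.03 and 9.05. Neither transporter had overlapping groups, as the rule that chose the largest rises required. The cationic amino acid transporter Slc7a1 rose by 0.78, the glutamine transporter Slc1a5 by 0.69 and the cystine transporter Slc7a11 by 0.42. The glutamine transporter Slc38a2, often counted with the genes that amino acid shortage induces, fell by 0.22.

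Enzymes of serine, asparagine, proline and one-carbon supply rose in 11 of 15 measured cases, and none was called lower. Loratadine gave the highest mean of the 20 groups for all 11. Gpt2, the mitochondrial alanine aminotransferase, measured 10.70, 10.71 and 10.75 with loratadine and 9.68, 9.73 and 9.78 with DMSO. It rose by 0.99 ± 0.06, with no overlap between the groups. Mthfd2 (0.64), Aldh18a1 (0.53) and Cth (0.45) of folate, proline and cysteine metabolism rose too, as did Asns (0.36) and Phgdh (0.32), the asparagine synthetase and the first enzyme of serine synthesis. The cytosolic Shmt1 (-0.12) and Mthfd1l (-0.04) were not called.

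The aminoacyl-tRNA synthetases of the cytosol, which charge tRNAs with amino acids, rose by less. Of 17 measured, 10 were called higher and 0 lower, with a median of 0.15 and a highest difference of 0.43, that of Cars. Sars rose by 0.37, Yars by 0.33 and Lars by 0.25. The call of 10 fell to 6 without loratadine replicate 3.

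Genes of the endoplasmic reticulum showed an uneven response. Of 25 measured chaperones and degradation factors, 11 rose and 2 fell, with a median of 0.14. Derl3, a channel component for the removal of misfolded proteins, measured 9.85, 10.13 and 10.03 against 9.00, 8.95 and 9.08, a rise of 0.99 ± 0.09. Herpud1, of the same removal pathway, rose by 0.82 ± 0.07. Both kept their groups apart. Sdf2l1 rose by 0.44 and the stress sensor Atf6 by 0.40. Hspa5 (BiP), the main chaperone of this compartment, measured 12.92, 12.91 and 12.92 with loratadine and 12.78, 12.81 and 12.85 with DMSO and was not called (0.11 ± 0.05, adjusted p = 0.113). Pdia4 was not called on its brighter probe set (0.13) but rose by 0.83 ± 0.10 on the dimmer one, 10544538. Hyou1 (-0.18) and Sel1l (-0.22) fell.

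Among 18 measured heat shock genes, 4 rose (22.2%) and 1 fell (5.56%), with a median of 0.01. Over all genes 11.4% rose and 8.42% fell. Hspb6 measured 10.44, 10.54 and 10.49 with loratadine and 9.28, 9.25 and 9.24 with DMSO. Hspb8, which with Bag3 feeds damaged proteins to autophagy, rose by 0.92 ± 0.07 and Bag3 by 0.30. The groups of Hspb8 did not overlap, nor did those of Hspb6, for which the rule of the largest rises required it. Dnajb4 rose by 0.74 and Hsph1, a partner of HSP70, fell by 0.56. The classical heat-induced gene Hspa1a differed by 0.05 and was not called.

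Cholesterol synthesis was the list with the highest share of calls among the 34 examined. Of 19 measured enzymes, 17 rose and 0 fell, with a median of 0.55. Msmo1, which removes methyl groups from sterol precursors, measured 11.51, 11.43 and 11.51 with loratadine and 10.31, 10.24 and 10.35 with DMSO. The groups were more than a log2 unit apart, and the difference was 1.18 ± 0.07, or 2.27-fold (limma adjusted p = 1.12e-17). Dhcr7, which makes cholesterol in the last step of one branch, measured 10.41, 10.52 and 10.46 against 9.45, 9.55 and 9.51, a difference of 0.96 ± 0.08. Its groups did not overlap. Cyp51 (0.79) and Nsdhl (0.77) act next to Msmo1 in the removal of methyl groups. Earlier steps rose as well, among them Hmgcs1 (0.55), Idi1 (0.66), Fdps (0.46), Fdft1 (0.49), Sqle (0.47) and Lss (0.69). Ggps1, which leads to isoprenoids instead of sterols, and Lbr, a sterol reductase of the nuclear envelope, differed by 0.10 each and were not called.

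The Msmo1 promoter is shown because Msmo1 rose most in the list and holds CCAAT 3 times. Its 250 bases before the start come from RefSeq, GRCm38.p6, chr8:64733579-64733828, minus strand, 5' to 3', with each CCAAT in capitals.
Msmo1: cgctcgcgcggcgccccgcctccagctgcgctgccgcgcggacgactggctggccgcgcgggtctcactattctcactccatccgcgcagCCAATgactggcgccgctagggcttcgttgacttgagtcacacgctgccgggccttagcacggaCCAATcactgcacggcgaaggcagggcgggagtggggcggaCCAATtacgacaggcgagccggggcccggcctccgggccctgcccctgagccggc

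CCAAT, the box bound by NF-Y, a usual partner of SREBP factors, stood on either strand in all 16 cholesterol synthesis genes with a promoter window (100%) and in 41.7% of all 15614. The 16 include Ggps1 and Lbr, which were not called. The sterol element letters TCACNCCAC, where N is any base, stood in 1 of the 16 and in 1.4% of all. A match says only that the letters are there.

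Genes that control or move cholesterol were split. Of 14 measured, 5 rose (35.7%, against 11.4% of all genes) and 3 fell (21.4%, against 8.42%). Insig1, a sterol-regulated brake on SREBP processing, measured 11.02, 11.11 and 11.11 with loratadine and 9.95, 9.76 and 9.98 with DMSO. It rose by 1.19 ± 0.08, and every loratadine array was at least a log2 unit above every DMSO array. Srebf2, the gene of SREBP2, rose by 0.51 ± 0.06, the lipoprotein receptor Lrp8 by 0.41, and the lysosomal cholesterol carrier Npc2 by 0.34. Of the cholesterol exporters in the list, Abca1 and Abcg1, both fell. Abca1 measured 7.98, 7.95 and 7.90 against 8.53, 8.37 and 8.58, a difference of -0.55 ± 0.07, and Abcg1 fell by 0.33. The Abca1 groups did not overlap. Scap, the escort of SREBP, fell by 0.19, a call that was lost when any array except DMSO replicate 3 was left out.

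Of 19 measured fatty acid genes 11 rose, with a median of 0.22, and 0 fell (1 without DMSO replicate 3). Over all genes 11.4% rose and 8.42% fell. Against the same DMSO arrays the list median was 0.16 with clozapine, 0.21 with glybenclamide and 0.20 with valproic acid. Loratadine gave the highest mean of the 20 groups for 3 of the 11. Scd1, the desaturase that makes oleate, measured 10.68, 10.69 and 10.65 against 9.88, 9.73 and 9.94, a difference of 0.82 ± 0.07 with no overlap. Lpin1, a phosphatidate phosphatase, rose by 0.60, Scd2 by 0.51 and the desaturase Fads1 by 0.50. Fasn (0.12) and Srebf1 (-0.01) were not called. Phospholipid and sphingolipid genes rose in 10 of 23 cases and fell in 1. The ceramide synthase Cers4 rose by 0.59, the glucosylceramide synthase Ugcg by 0.45, the lipid droplet protein Plin2 by 0.37 and Pcyt2, of phosphatidylethanolamine synthesis, by 0.36.

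Lysosomal genes were the other large block. Of 28 measured enzymes and membrane proteins, 21 rose and 0 fell, with a median of 0.35. Against the same DMSO arrays the median was 0.23 with valproic acid, 0.21 with clozapine and 0.19 with glybenclamide. Hexa, a subunit of the enzyme that degrades GM2 ganglioside, measured 10.42, 10.35 and 10.42 with loratadine and 9.64, 9.60 and 9.70 with DMSO, a difference of 0.75 ± 0.08. The sialidase Neu1 measured 9.24, 9.32 and 9.46 against 8.57, 8.70 and 8.67, a difference of 0.70 ± 0.07. In both genes the lowest loratadine array was above the highest DMSO array. The membrane protein Lamp2 (0.64), the galactosidase Gla (0.63) and the cystine exporter Ctns (0.59) followed, and Lamp1 (0.08) was not called.

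The vacuolar proton pump acidifies lysosomes. Of its 15 measured subunits, 10 rose and 1 fell, with a median of 0.23. Against the same DMSO arrays the median was 0.23 with valproic acid, 0.18 with clozapine and 0.11 with glybenclamide. Set directly against valproic acid, 2 of the 15 were higher with loratadine and 1 lower. Atp6ap2 rose by 0.48 ± 0.08, Atp6v1d and Atp6v1a by 0.37 each and Atp6v0d1 by 0.35. Atp6v0a2 fell on both of its probe sets, by 0.13 on the brighter one and by 0.32 ± 0.10 (adjusted p = 0.0148) on the other, 10525833. The first call was lost when loratadine replicate 2 or 3 or DMSO replicate 1 or 3 was left out, and the second without loratadine replicate 1 or DMSO replicate 2.

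Folliculin, its partners and the Rag GTPases tell mTORC1 and TFEB how well lysosomes are fed. Of 18 measured members 5 rose (27.8%, against 11.4% of all genes) and 3 fell (16.7%, against 8.42%). Fnip1, the partner of folliculin, measured 10.40, 10.37 and 10.39 with loratadine and 9.78, 9.86 and 9.91 with DMSO, a rise of 0.53 ± 0.07. Rragc rose by 0.33 and Flcn, folliculin, by 0.27. Rragd fell by 0.31 and Tfe3 by 0.18 (not called without loratadine replicate 1 or DMSO replicate 1), while Tfeb itself (-0.03) was not called. Without loratadine replicate 1, the 3 falls became 1.

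The 8 letters TCACGTGA, the core of the element that TFEB binds, stood in 5 of 25 lysosomal genes with a promoter window (20%), in 3 of 10 proton pump genes (30%), in 0 of 17 of the folliculin list and in 1.52% of all 15614. Among the proton pump genes with the letters, Atp6v0e (0.06) was not called. Here too the shares depend on which genes were listed. For 4 genes that rose, stretches of 28 bases are printed on the gene's strand with the match in capitals; they were chosen after the matches were seen. In GRCm38.p6 they lie at chrX:134601216-134601243 (Gla), chr8:3500463-3500490 (Mcoln1, the lysosomal calcium channel, which rose by 0.44), chr7:142387909-142387936 (Ctsd, a cathepsin, which rose by 0.21 and was not called without loratadine replicate 3 or DMSO replicate 3) and chr16:44139374-44139401 (Atp6v1a).
Gla: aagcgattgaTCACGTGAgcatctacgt
Mcoln1: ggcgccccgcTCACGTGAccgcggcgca
Ctsd: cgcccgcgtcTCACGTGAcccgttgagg
Atp6v1a: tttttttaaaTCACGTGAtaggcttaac

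Of 34 measured genes of the autophagy machinery 7 rose (20.6%) and 1 fell (2.94%), with a median of 0.07. Over all genes 11.4% rose and 8.42% fell. Wipi1, which binds the lipid of young autophagosomes, measured 8.53, 8.40 and 8.48 against 7.85, 7.89 and 7.97, a rise of 0.57 ± 0.08. Its groups did not overlap. Gabarapl1 (0.47) and Atg12 (0.46) rose, and so did the cargo receptor Sqstm1 (0.26). Without loratadine replicate 3, 4 of the genes were called higher, and without DMSO replicate 2, 3 were called lower.

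**Figure D2:**
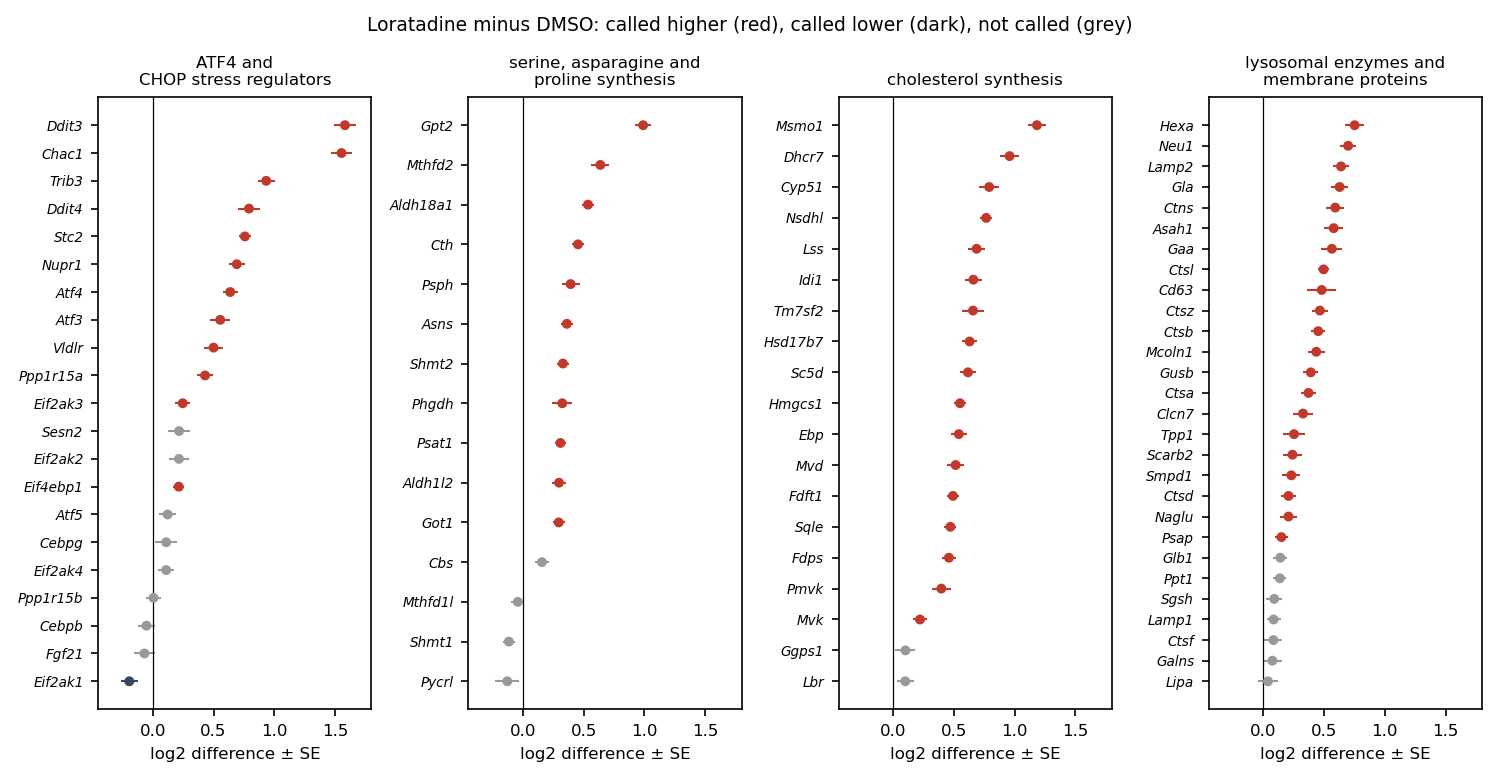
Log2 difference ± SE (horizontal axis, loratadine minus DMSO, 3 arrays each) of every measured member of 4 gene lists, coloured by whether it was called higher, lower or not. Of the cholesterol synthesis genes 17 of 19 are called higher, and of the lysosomal genes 21 of 28.

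**Figure D3:**
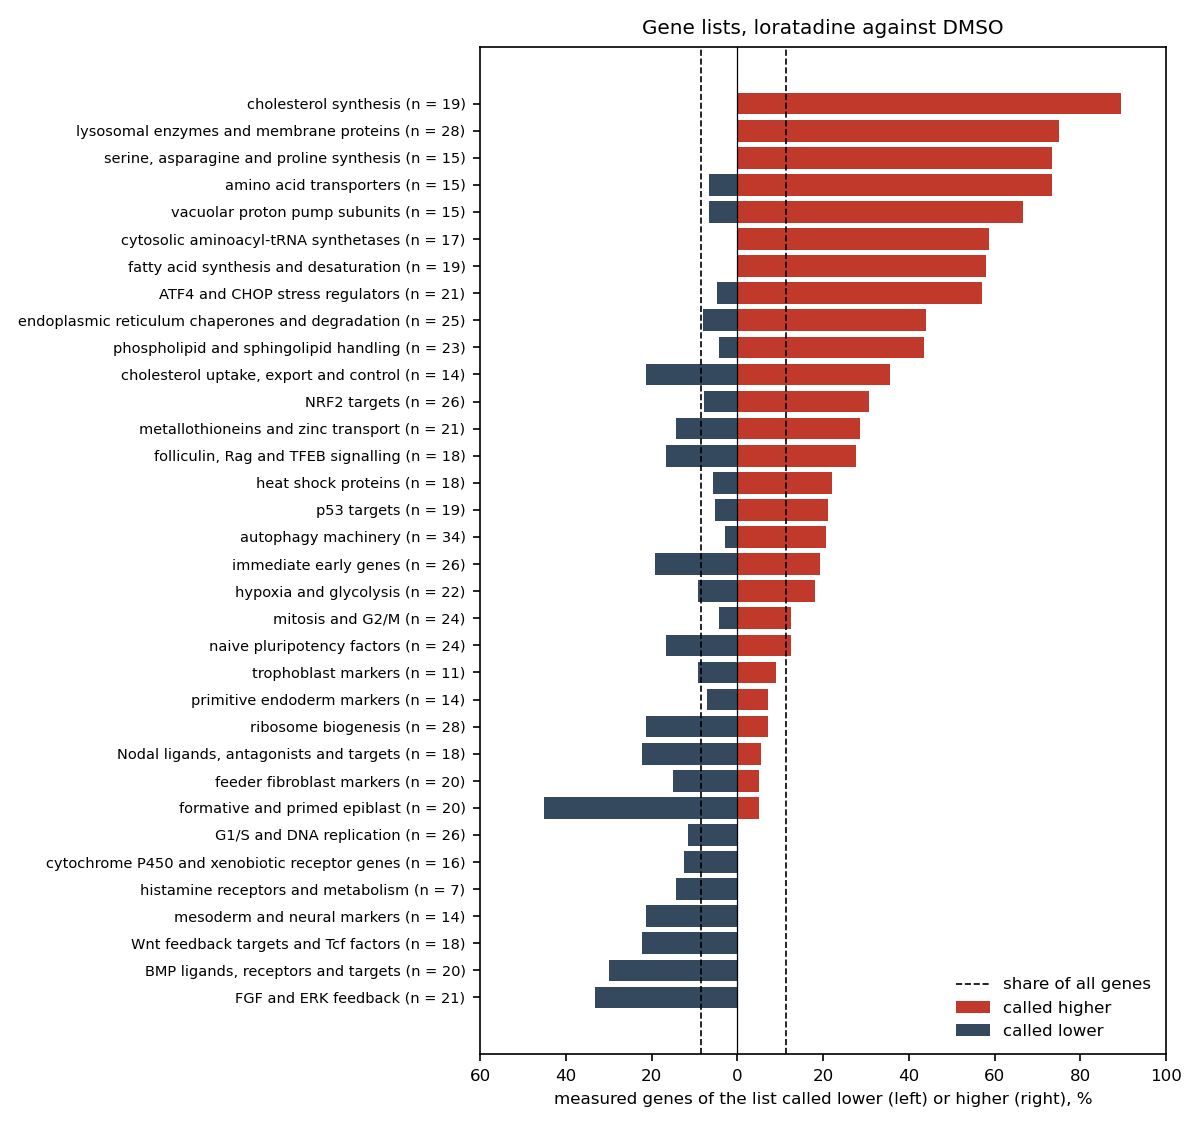
Percent of the measured genes of each of 34 lists called higher (right) or lower (left) with loratadine, with the share of all genes as dashed lines at 11.4% and 8.42%. Cholesterol synthesis (89.5%) and lysosomal genes (75%) stand at the upper end for rises, and the formative and primed epiblast list (45%) has the highest share of falls.

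The microRNA genes Mir302a to Mir302d and Mir367 lie together on chromosome 3. They are known from pluripotent stem cells, where the miR-302 family is linked to the cell cycle. Mature forms listed by RefSeq are printed because all 5 genes of the cluster were called higher, and to show which of their seeds match. The positions in GRCm38.p6, plus strand, are chr3:127545275-127545297 (miR-302b-3p), chr3:127545665-127545687 (miR-302d-3p), chr3:127545406-127545427 (miR-302c-3p), chr3:127545501-127545522 (miR-302a-5p) and chr3:127545779-127545800 (miR-367-3p), and capitals mark the seed, bases 2 to 8.
miR-302b-3p: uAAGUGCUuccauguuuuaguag
miR-302d-3p: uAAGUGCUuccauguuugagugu
miR-302c-3p: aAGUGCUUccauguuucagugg
miR-302a-5p: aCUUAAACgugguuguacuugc
miR-367-3p: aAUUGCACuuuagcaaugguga

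The seeds of miR-302b-3p and miR-302d-3p are the same, and that of miR-302c-3p as listed is the same run of letters moved by 1 base. The seeds of miR-302a-5p and miR-367-3p match none of the others printed. The reference used here holds no miR-302a-3p, so the 3p form of miR-302a could not be compared with the other 3p forms. The 5p forms of miR-302b, miR-302c and miR-302d, not printed, share the seed CUUUAAC, against CUUAAAC for miR-302a-5p. The array probe sets measure RNA of the microRNA gene and not the mature form. Their DMSO means, from 4.67 (Mir367) to 7.19 (Mir302d), lay below the DMSO array medians of 7.63 to 7.67. Mir302b measured 6.94, 6.84 and 6.65 with loratadine and 5.83, 5.64 and 5.87 with DMSO, a difference of 1.03 ± 0.15 (adjusted p = 1.02e-06). Mir302c measured 7.51, 7.20 and 7.22 against 6.30, 6.09 and 6.48, a difference of 1.01 ± 0.17. For Mir302a the signals were 7.75, 7.42 and 7.58 against 6.56, 6.43 and 6.77, a difference of 1.00 ± 0.20. Mir302d rose by 0.67 ± 0.11 and Mir367 by 0.59 ± 0.17 (not called without loratadine replicate 1 or DMSO replicate 2). All 5 genes of the cluster had every loratadine array above every DMSO array, as had 19.1% of all probe sets. The loratadine mean was the highest of the 20 groups in each. The 5 genes lie on 1 strand within chr3:127545228-127545807, so they need not be separate observations. Of all 305 microRNA probe sets tested, 21 rose and 19 fell, or 13.1% in all, with a median of -0.06. Differences from the same DMSO arrays were -0.04 with clozapine, 0.61 with glybenclamide and -1.06 with valproic acid for Mir302b.

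**Figure D4:**
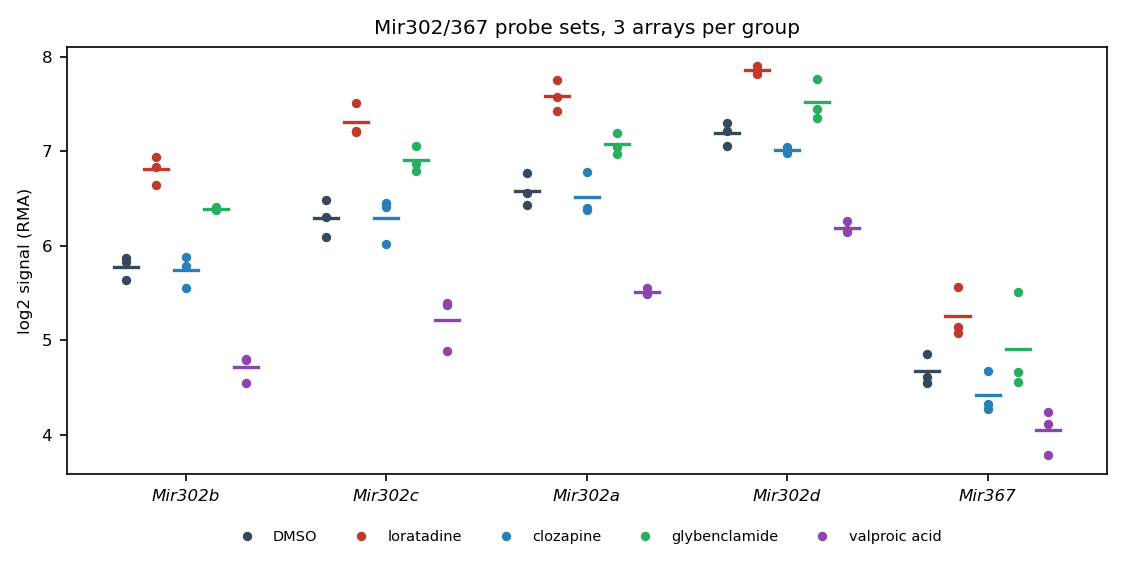
Log2 RMA signal (vertical axis) of the 5 microRNA gene probe sets of the Mir302 and Mir367 cluster in 3 arrays each of DMSO, loratadine, clozapine, glybenclamide and valproic acid, with a bar at each mean. For Mir302b the loratadine arrays lie between 6.65 and 6.94, the DMSO arrays between 5.64 and 5.87, and the valproic acid mean is 4.71.

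The core pluripotency factors were not among the called genes. Pou5f1 differed by -0.04 ± 0.09, Nanog by -0.01 ± 0.05 and Sox2 by -0.11 ± 0.04, which was called lower without loratadine replicate 1. Of 24 measured naive pluripotency genes 3 rose (12.5%) and 4 fell (16.7%), with a median of 0.01. Over all genes 11.4% rose and 8.42% fell, so the share of rises was near that of all genes. Klf2 (0.39 ± 0.07) and Esrrb (0.34 ± 0.07), which hold cells in the naive state, rose, and Klf4 rose by 0.19, a call that was lost when any array except loratadine replicate 1 was left out. The nuclear receptor Nr5a2 measured 9.75, 9.64 and 9.74 with loratadine and 10.41, 10.19 and 10.47 with DMSO, a difference of -0.65 ± 0.07. Gbx2 measured 9.75, 9.83 and 9.71 against 10.40, 10.29 and 10.25, a difference of -0.55 ± 0.06. The groups of both were separate. Gdf3, a Nodal-related ligand, fell by 0.28 and Sall4 by 0.17.

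Genes that mark the next stage, the formative and primed epiblast, fell in 9 of 20 measured cases and rose in 1, with a median of -0.20. Loratadine gave the lowest mean of the 20 groups for 0 of the 9, against 49.9% of all falls. Against the same DMSO arrays the list median was -0.19 with valproic acid, -0.16 with glybenclamide and -0.08 with clozapine. Foxd3 measured 8.86, 8.98 and 8.94 with loratadine and 9.68, 9.56 and 9.56 with DMSO, a difference of -0.67 ± 0.08. Grhl2 fell by 0.47, Sall2 by 0.41, Zic2 by 0.31, Fgf5 by 0.30 and Otx2 by 0.22. The call of Otx2 was lost without loratadine replicate 1 or 2 or DMSO replicate 1 or 3. Tead2, a partner of the Hippo pathway factor YAP, rose by 0.45. Among 14 measured mesoderm and neural markers 3 fell (21.4%, against 8.42% of all genes) and 0 rose. The factor Eomes measured 7.48, 7.46 and 7.60 against 8.04, 8.07 and 8.27, a difference of -0.61 ± 0.07, and Pax6 fell by 0.72. Their loratadine arrays were all below the DMSO arrays, which for Pax6 the rule of the largest falls required. Mixl1 fell by 0.20, a call that was lost without loratadine replicate 3, DMSO replicate 1 or DMSO replicate 2; without DMSO replicate 3, 6 of the 14 markers were called lower.

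Of 18 measured genes in the Nodal list 4 fell (22.2%, against 8.42% of all genes), all of them inhibitors, and 1 rose. The related ligand gene Gdf3 (-0.28) and the activin subunit gene Inhbb (-0.66) are outside this list and fell too. The ligand Nodal (-0.06 ± 0.07) was not called. Its secreted inhibitors fell: besides Lefty1, Lefty2 measured 7.69, 7.73 and 7.68 against 8.27, 8.29 and 8.28, a difference of -0.58 ± 0.09. Skil and Smad7, which restrain SMAD signalling inside the cell, fell by 0.46 and 0.22, with Skil at 9.84 to 9.91 in the loratadine arrays and 10.25 to 10.41 in the DMSO arrays. The receptor Acvr1b rose by 0.43.

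The called BMP and FGF genes fell; 1 BMP gene was called higher without loratadine replicate 1 and 1 FGF gene without DMSO replicate 3. In the BMP list 6 of 20 fell (30%, against 8.42% of all genes). The ligand Bmp4 measured 10.98, 11.07 and 11.02 against 11.56, 11.45 and 11.53, a difference of -0.49 ± 0.06. Its groups did not overlap. Id3, a direct BMP target, fell by 0.38, Msx1 by 0.32 and Bmp2 by 0.31, while Id1 (0.02) was not called. The count was 3 without loratadine replicate 3, and then or without loratadine replicate 1 or DMSO replicate 2 the call of Msx1 was lost; that of Bmp2 was lost without loratadine replicate 1. In the FGF and ERK list 7 of 21 fell (33.3%), among them Etv1 (-0.41), Spred1 (-0.38), Spry4 (-0.31) and the receptor Fgfr2 (-0.29). Fgf4, the main FGF of these cells, differed by 0.19 and was not called. Of 18 Wnt feedback genes and Tcf factors 4 fell (22.2%), namely Notum (-0.26), Axin2 (-0.25), Lef1 (-0.24) and Fzd7 (-0.19). The call of Fzd7 was lost without loratadine replicate 1 or DMSO replicate 3.

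Few of the genes listed for the drug's own pharmacology were called. Hrh1, the receptor that loratadine blocks, measured 7.89, 7.83 and 7.89 with loratadine and 7.93, 8.01 and 7.85 with DMSO, so the groups overlapped (-0.05 ± 0.07, adjusted p = 0.621). Hrh2 differed by -0.19 ± 0.10 and Hrh3 by -0.16 ± 0.10, and neither was called. Hrh4 had dim signals of 5.47 to 5.53 against 5.55 to 5.97, and its difference of -0.27 ± 0.09 had an adjusted p of 0.0374 that was lost when any array except DMSO replicate 3 was left out. The list of cytochrome P450 and xenobiotic receptor genes leaves out Cyp2b23 (-0.74), one of the 12 largest falls, and Cyp51 (0.79) of cholesterol synthesis. Of its 16 measured genes 0 rose and 2 fell (12.5%, against 8.42% of all genes), Cyp3a16 (-0.27) and Cyp1b1 (-0.21). Both calls were lost without loratadine replicate 2 or 3 or DMSO replicate 3, Cyp3a16 also without DMSO replicate 2, and Cyp1b1 also without loratadine replicate 1 or DMSO replicate 1.

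Metal and oxidant genes responded in part. Mt1, a metallothionein that binds zinc and copper, measured 12.66, 12.86 and 12.77 against 11.93, 11.92 and 12.01, a rise of 0.81 ± 0.08 with no overlap. Of 21 metallothioneins and zinc transporters 6 rose (28.6%, against 11.4% of all genes) and 3 fell (14.3%, against 8.42%), Slc39a10 among the latter. The 6 became 3 without loratadine replicate 1 or DMSO replicate 2, and the 3 falls became 1 without loratadine replicate 1. Of 26 measured targets and partners of NRF2, the factor of the oxidant response, 8 rose (30.8%) and 2 fell (7.69%). The 2 falls became 1 when any array except loratadine replicate 2 was left out. Hmox1, which degrades haem, rose by 0.59 ± 0.06, Slc7a11 by 0.42 and the transporter Abcc1 by 0.34. Nfe2l2, the gene of NRF2, rose by 0.32 and its inhibitor Keap1 fell by 0.36. The glutathione synthesis genes Gclc (-0.03) and Gclm (-0.08) and the thioredoxin reductase Txnrd1 (-0.07) were not called.

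Loratadine was then set directly against 3 other compounds, each treated group against the other, so that no DMSO array entered the difference. Doses differ between the compounds. Against clozapine, which like loratadine has a tricyclic core, 2436 probe sets were called (11.2%), 1456 higher with loratadine (6.68%) and 980 lower (4.5%). The total was 1568 without clozapine replicate 2, 1574 without loratadine replicate 3 and 1623 without loratadine replicate 1. Ddit3 was higher with loratadine by 1.41 ± 0.09 and Wnk1 (10547469) by 1.31 ± 0.10, with Mir302b and Mir302a each higher by 1.07. Cyp2b23 (-0.78), Xkrx (-0.77), Lefty1 (-0.74) and Enox1 (-0.72) were lower with loratadine than with clozapine.

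By list, loratadine exceeded clozapine in 10 of 21 ATF4 and CHOP regulators, with 1 lower, in 9 of 15 amino acid transporters, with 1 lower, and in 10 of 15 genes of serine, asparagine and proline synthesis, with 0 lower. For cholesterol synthesis it was 5 of 19 higher and 0 lower, with a median difference of 0.12. Both drugs stood above the same DMSO arrays, with list medians of 0.55 for loratadine and 0.48 for clozapine. Insig1 was 11.08 ± 0.05 (SD, n = 3) with loratadine and 11.14 ± 0.05 with clozapine, a difference of -0.06 ± 0.08 that was not called (limma adjusted p = 0.714). Cyp51 likewise differed by -0.11 (adjusted p = 0.431), while Msmo1 was 0.25 ± 0.07 higher with loratadine (adjusted p = 0.0147) and Dhcr7 0.45 higher. The call of Msmo1 was lost without replicate 1 or 3 of loratadine or replicate 1 or 2 of clozapine. Among lysosomal genes 9 of 28 were higher with loratadine and 0 lower; Hexa differed by 0.10 and was not called, and Gla was 0.53 higher.

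Against glybenclamide, a drug that closes potassium channels, 1484 probe sets were called (6.81%), 714 higher with loratadine (3.28%) and 770 lower (3.53%). That total was 943 without loratadine replicate 3, 960 without glybenclamide replicate 1 and 977 without glybenclamide replicate 3. Ddit3 was higher with loratadine by 1.24, Wnk1 by 1.10, the chemokine Cxcl16 by 0.86 and Msmo1 by 0.83. Neto2, Foxd3, Zbtb45 and Ceacam1 were the 4 probe sets lower by most, with Foxd3 at -0.64. Cholesterol synthesis genes were higher with loratadine in 15 of 19 cases and lower in 0, with a median of 0.36. Of the amino acid transporters 3 of 15 were higher; Slc7a1 was one of those not called (adjusted p = 0.872). Lefty1 stood at 8.55 ± 0.04 with loratadine and 8.54 ± 0.11 with glybenclamide (SD, n = 3 each), a difference of 0.01 ± 0.09 (adjusted p = 0.977).

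Against valproic acid, an inhibitor of histone deacetylases, 6412 probe sets were called (29.4%), 2954 higher with loratadine (13.6%) and 3458 lower (15.9%). The 4 largest positive differences were Mir302b (2.09), Mir302c (2.09), Mir302a (2.07) and Mir302d (1.66), all of 1 cluster. Egr1, an immediate early factor, differed by -1.45, at 8.94 with loratadine and 10.39 with valproic acid, and H2ac1, Rem2 and Gpr155 followed. Naive pluripotency genes were higher with loratadine in 16 of 24 cases and lower in 1, and formative and primed epiblast genes were higher in 11 of 20 and lower in 4. Against the DMSO arrays the naive median was 0.01 with loratadine and -0.24 with valproic acid. For the formative and primed list it was -0.20 with loratadine and -0.19 with valproic acid. For Pax6 (0.16 ± 0.08) and Enox1 (0.03 ± 0.06) the difference between loratadine and valproic acid was not called, though that of Pax6 was without loratadine replicate 1.

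**Figure D5:**
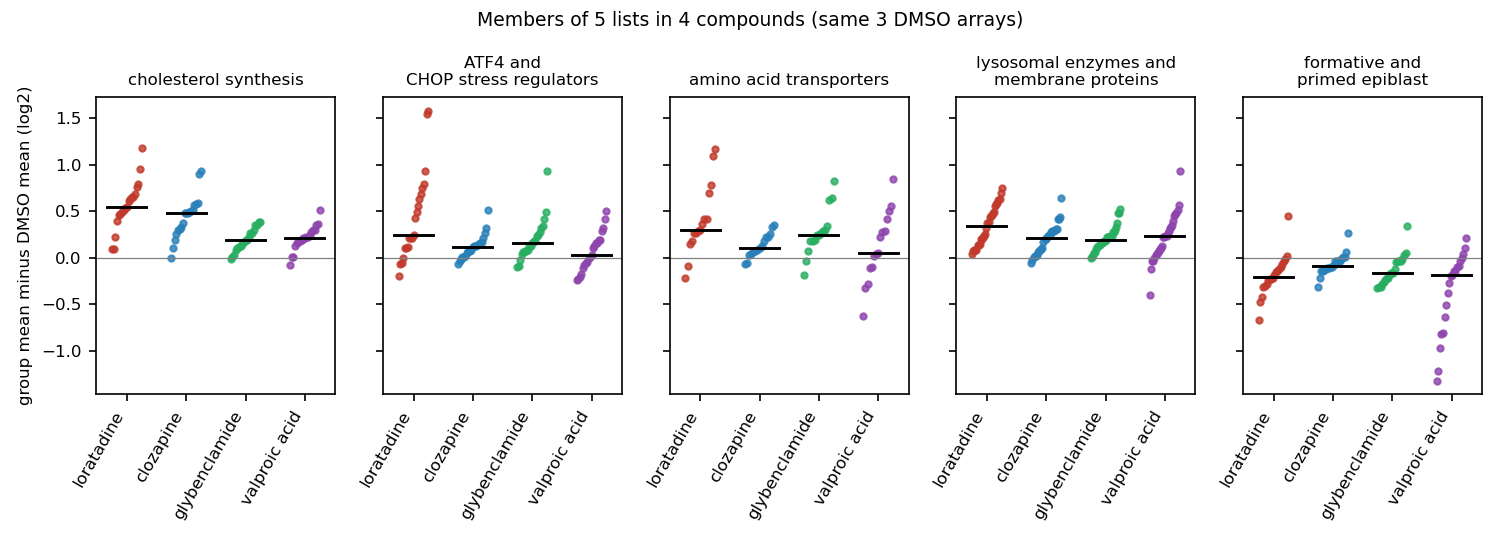
Group mean minus DMSO mean (log2, vertical axis) for each measured member of 5 gene lists with loratadine, clozapine, glybenclamide and valproic acid, with a bar at each median; all 4 compounds share the same 3 DMSO arrays. The cholesterol synthesis medians are 0.55, 0.48, 0.19 and 0.21, and the ATF4 and CHOP medians 0.25, 0.12, 0.16 and 0.03.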

How the data were processed

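RNA of R1 cells was hybridised to Affymetrix mouse gene arrays. The authors deposited log2 signals per probe set, made with RMA per the submitters' processing notes; its version is not given in the sources used here. They were used without further normalisation. Of 35556 probe sets, 21789 had 1 symbol in the platform annotation and were tested. A model with a mean per group was fitted to all 60 arrays (limma 3.58.1, R 4.3.3), which was tested on simulated data. With arrays, the number of replicates limits the precision. Replicate numbers follow the deposit order. The 34 gene lists use the brightest probe set per gene. Members and lists were chosen with earlier results of these data known. Named are the 16 largest rises and 12 largest falls among called probe sets with separate groups, the 4 called list members with the largest change, the histamine receptors and the 4 largest direct differences each way; other genes were named after their values were seen. Promoters and microRNAs come from RefSeq tables, GRCm38.p6. Normalisation, filter, probe sets, model, weights, covariates, reference and replicates were varied.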

Additional observations from a re-analysis of the deposited data

Results flagged for a closer look

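Outside the probe sets analysed, 13767 probe sets have no gene symbol or several. Fitted together with all others, 1016 of them were called between loratadine and DMSO, 629 higher and 387 lower, with a largest rise of 1.92 and a largest fall of -0.88. They stand here because they are a signal in data that the comparisons leave aside, and they are not named.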

How the results depend on the processing

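No paired analysis was possible because the replicate numbers follow only the order of deposit. With array quality weights the calls were 9359 against DMSO (45.7% higher), 6820 against clozapine, 4175 against glybenclamide and 10375 against valproic acid; the cause was not tested. Leaving out 1 array gave 2723 to 4354 calls against DMSO, 1568 to 2024 against clozapine, 943 to 1189 against glybenclamide and 5098 to 5531 against valproic acid. Under the remaining alternatives these 4 counts stayed within 1.5 times. Of 68 counts of list members called higher or lower, array weights moved 35 by more than 1.5 times, leaving out 1 array 8 to 12 and the other alternatives 3 to 11. The rises in cholesterol synthesis and lysosomal genes were within 1.5 times throughout. Falls in ribosome biogenesis went from 6 to 10 with quantile normalisation and 13 with weights, and its 2 rises to 1 with the 6 arrays alone. Falls of mesoderm and neural markers went from 3 to 6 with quantile normalisation and 1 without dim probe sets. The 4 p53 rises became 2 with the interquartile range as a covariate, the 5 immediate early falls 3 with it, and the 3 naive pluripotency rises 5 with the 6 arrays alone. Of 227 probe sets named by the rule or the text against DMSO, 196 were called; 165 of them stayed called in every setting, and 31 lost the call in at least 1. Of the 31 not called, 10 were called in at least 1 setting. Of 27 called direct differences, 26 stayed called, all but Msmo1 against clozapine; of the 7 others, 2 were called in some setting. No probe set was called in the opposite direction. Otx2, called lower, stood at 0.0012 against the mean of the other 18 compounds. The other sign changes were of differences that were not called. Against that mean Id1 was -0.0581, Mthfd1l 0.0218, Nanog 0.0478, Pou5f1 0.038 and Tfeb 0.0537. With weights Fgf21 was 0.0127 and Srebf1 0.0474, with a covariate for the letter b in sample titles Nanog 0.0157, Slc2a1 0.0042 and Srebf1 0.0431, with the interquartile range Cebpb 0.0121, Fgf21 0.042 and Id1 -0.0204, and with quantile normalisation Id1 -0.0309. Leaving out 1 array gave -0.111 to 0.046 for Cebpb, -0.1314 to 0.0449 for Fgf21, -0.0655 to 0.0078 for Gclc, -0.0142 to 0.06 for Id1, -0.0207 to 0.0033 for Nanog, -0.0409 to 0.0215 for Srebf1, -0.0711 to 0.0243 for Tfeb and -0.0375 to 0.0038 for the brighter Wnk1 probe set, and against glybenclamide -0.0481 to 0.0594 for Lefty1 and -0.1002 to 0.007 for Slc7a1. The cause was not tested. Dim probe sets and 3 arrays per group limit what could be seen.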

Other observations

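Genes of growth and the cell cycle are set here beside the share of all genes, of which 11.4% rose and 8.42% fell. Of 26 measured genes of G1/S and DNA replication 0 rose and 3 fell (11.5%), E2f2 (-0.23), Tyms (-0.21), the thymidylate synthase, and the cyclin Ccnd1 (-0.17). Of 24 genes of mitosis 3 rose (12.5%), Cdc25c (0.37), Hmmr (0.35) and Nusap1 (0.24), and 1 fell, Aurkb (-0.21). The calls of Tyms without DMSO replicate 3 and of Nusap1 without loratadine replicate 1 or DMSO replicate 2 were lost. Genes of ribosome biogenesis fell in 6 of 28 cases (21.4%) and rose in 2 (1 without loratadine replicate 1, loratadine replicate 2 or DMSO replicate 2), with Polr1b, a subunit of RNA polymerase I, at -0.36 and Utp20 at -0.32. Myc, which drives that process, measured 10.94, 11.08 and 11.02 with loratadine and 11.55, 11.37 and 11.47 with DMSO, a difference of -0.45 ± 0.06 with no overlap, and its loratadine mean was the lowest of the 20 groups. Among 26 immediate early genes 5 rose and 5 fell; Zfp36, which destabilises inflammatory mRNAs, rose by 0.59, Klf6 by 0.43 and Jund by 0.40. The 5 falls became 2 without loratadine replicate 1, DMSO replicate 1 or DMSO replicate 2, and 3 without loratadine replicate 3.

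Of 19 p53 targets 4 rose, led by Sesn1 (0.38), and 1 fell, Aen (-0.29); Mdm2 (0.11) was not called, and the 4 became 2 without loratadine replicate 3 or DMSO replicate 2, and without the latter 2 were called lower. In the hypoxia and glycolysis list 4 of 22 rose and 2 fell: Vegfa, the vessel growth factor, measured 9.61, 9.61 and 9.71 against 9.03, 9.03 and 9.04, a rise of 0.61 ± 0.06, while Slc2a1 (-0.02) and Ldha (0.07) were not called. Of 20 feeder fibroblast markers 1 rose and 3 fell, all by at most 0.22, and the 3 falls became 0 without loratadine replicate 1 or DMSO replicate 2 and 1 without loratadine replicate 2 or DMSO replicate 1, and the rise, that of Postn, was lost when any of the 6 arrays was left out. Over all genes 11.4% rose and 8.42% fell. Primitive endoderm markers rose in 1 and fell in 1 of 14 cases (7.14% each), and trophoblast markers in 1 and 1 of 11 (9.09% each). Without DMSO replicate 3, 2 were called lower in each of these lists, and 2 trophoblast markers were called higher without DMSO replicate 3 or loratadine replicate 2.

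Several other rises and falls, chosen after their values were seen, lie near the listed themes. The lysosomal glycoprotein Cd68 rose by 1.01 ± 0.08 and the lysosomal enzyme Idua by 0.97 ± 0.09. Pck2, the mitochondrial enzyme that makes phosphoenolpyruvate, rose by 0.81 ± 0.07, and the cold-inducible RNA-binding protein Cirbp by 0.78 ± 0.07. Ciart, a repressor of the circadian clock, rose on both of its probe sets, by 0.98 and 0.80, and the germ cell factor Prdm1 by 0.89. Inhbb, a subunit of activin, fell by 0.66 and the iron exporter Slc40a1 by 0.61.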
